A study of Mus musculus with 5 samples.

Results

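Apoe and 7 other genes of cholesterol handling, Pltp, Lrp1, Lipa, Npc2, Abca1, Abcg1 and Soat1, were followed across the myeloid cells of the brain. The 8 genes were taken by symbol from the 52542 gene rows of single-cell tables of unique molecular identifiers (UMIs), and all 8 were detected. A UMI marks 1 captured mRNA molecule, counted here at its 3′ end, so that a level does not scale with the length of the transcript.

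Apolipoprotein E is the main carrier of cholesterol between cells of the brain, where astrocytes and activated microglia are known as its sources. Lipid taken up through receptors is split in the lysosome to free cholesterol. Free cholesterol can leave the cell through ABC transporters onto apolipoprotein particles, or it can be stored as esters in droplets. Macrophages that clear debris and dying cells depend on this route, and liver X receptors, nuclear receptors that sense oxysterols, are known to induce its efflux genes, Apoe among them.

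Brains of DM-hTAU mice were the source of the cells. These mice carry a doubly mutated human tau transgene as a model of tauopathy, and they were 9 months of age and treated with aPDL1, an antibody that blocks PD-L1. Cells were sorted as CD45+ CD11b+ and profiled by MARS-seq, in which every cell is lysed in its own well of a plate. All 5 libraries (AB5863, AB5864, AB5865, AB5876 and AB5867) carry the same labels, so that the transgene and the antibody were shared by every cell and neither could be compared with a control. The study's text also speaks of IgG2b-treated mice, and the tissue preparation that the labels describe belongs to other organs. The mice are heterozygous, on a mixed BALBc and C57/BL6 background, and the promoter of tau itself drives the transgene. For the mouse of each well and any pooling of mice, the sources used here give nothing. The sort selected strongly CD45- and CD11b-positive cells, and resting microglia, known for little CD45, are then sampled only in part.

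Of 1920 wells, 1900 held a cell, and 825 cells with at least 500 UMIs were kept, between 68 and 314 per library, with a median of 1015 UMIs. All libraries used the same 384 cell barcodes, and 0 pairs of pool and cell barcode occurred in more than 1 library. Cells were assigned by summed marker genes. The classes were 252 microglia-like cells (P2ry12, Tmem119 and others), 120 border macrophage-like cells (Pf4, Cbr2, Mrc1, Lyve1 and others), 194 cells with MHC class II genes (Cd74 and others) and no other list, 41 Cd209a-expressing cells, 50 monocyte-like cells (Ly6c2, Ccr2 and others) and 30 neutrophil-like cells (S100a8, S100a9 and others). A further 34 cells passed both the microglia and the border macrophage mark, and 104 fell in none of these classes, 24 of which passed a list of activation genes. The marker sums followed the names: the microglia list held 168 UMIs per 10000 in microglia-like and 31.6 in border macrophage-like cells, and the border macrophage list held 5.51 and 82.8. The classes were not sharp, since 75 cells lay within 20% of the microglia mark and 37 within 20% of the border macrophage mark. Of the 8 markers of astrocytes, 5 (Aqp4, Gfap, Aldoc, Gja1 and Clu) had 0 UMIs in the kept cells, and the whole list reached at most 1.10 UMIs per 10000 in any of these 6 classes. Cells are not replicates, so classes were compared over libraries, as UMIs summed per class and library with at least 5 cells of the class. Nothing ties the libraries to separate mice, and p-values therefore rest on the spread between libraries, which may be technical. In the edgeR fits over all genes, with 1 to 4 residual degrees of freedom, this spread was largely pooled over genes. A very small adjusted p there says little of how 1 gene varied between libraries.

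Apoe lies on chromosome 7 at 19696109 to 19699188 of GRCm38, on the minus strand. It was the 6th most abundant of 16856 detected genes, with 11224 UMIs (99.1 per 10000), and 706 of 825 cells (85.6%) had at least 1 Apoe UMI. The other genes stood far lower. Npc2 had 930 UMIs, Lrp1 201, Lipa 174, Abca1 151, Soat1 122, Abcg1 94 and Pltp 81, so that 1 or 2 UMIs in a small class decide many of their values. The share of all Apoe UMIs that fell in border macrophage-like cells was 26.3% and in the MHC class II cells 32.5%, against 17.9% in the more numerous microglia-like cells.

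Border macrophage-like cells, named for markers known from macrophages of the meninges and perivascular spaces, held the highest Apoe level of these classes. Where these cells lay in the brain and whether they were resident or recruited from blood was not measured. Their Apoe level was 341 UMIs per 10000 in AB5863, 215 in AB5865 and 201 in AB5876, a mean of 252 ± 77.4 (SD, n = 3). AB5864 and AB5867 held 2 such cells each, at 438 and 438 UMIs per 10000, and were left out of the mean. In microglia-like cells Apoe stood at 81.9 UMIs per 10000 in AB5863, 70.4 in AB5864, 70.2 in AB5865, 50.9 in AB5876 and 78.8 in AB5867, a mean of 70.4 ± 12.1 (SD, n = 5). The lowest border macrophage-like value was above the highest microglia-like value, and the ratio within a library ran from 3.06 to 4.17.

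The MHC class II cells without another list spanned the values between. Apoe there was at 186 UMIs per 10000 in AB5863, 64.7 in AB5864, 93.6 in AB5865 and 134 in AB5876, a mean of 119.5 ± 52.5 (SD, n = 4), and this range overlapped that of microglia-like cells; the 3 such cells of AB5867 were at 22.1. Cells with both the microglia and the border macrophage mark were at 153.6 ± 27.7 (SD, n = 3) and cells in no class at 122 ± 15.3 (SD, n = 5). Monocyte-like cells held 43.3, 15.1, 58.6 and 68.8 UMIs per 10000 in the same libraries, a mean of 46.5 ± 23.4 (SD, n = 4), which also overlapped microglia-like cells. Their Apoe was therefore not distinguishable from that of microglia-like cells by these library values.

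Cd209a cells and neutrophil-like cells had the lowest Apoe levels. The Cd209a cells, which carried as many MHC class II UMIs as the MHC class II cells (460 and 463 per 10000), held 5.11 UMIs of Apoe per 10000 in AB5864, 10.2 in AB5865 and 19.3 in AB5876, a mean of 11.6 ± 7.19 (SD, n = 3). Neutrophil-like cells held 7.59 in AB5864, 22.9 in AB5867 and 14.3 in AB5876, a mean of 14.9 ± 7.66 (SD, n = 3). These last ranges overlapped, whereas every Cd209a value was below every microglia-like value. In descending order of the mean over libraries, the classes were border macrophage-like, MHC class II, microglia-like, monocyte-like, neutrophil-like and Cd209a cells, and of neighbours in this order only the first pair did not overlap.

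**Figure D1:**
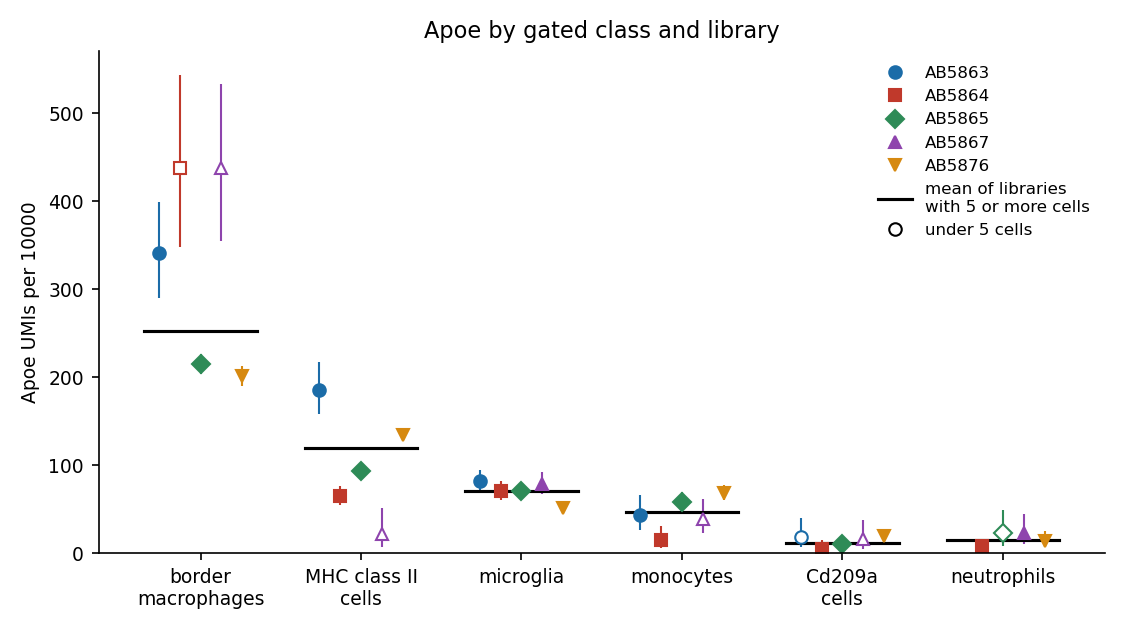
Apoe UMIs per 10000 UMIs (y axis) by marker-gated cell class (x axis), with 1 point per library. Lines mark the mean over libraries with at least 5 cells of the class, and open points are libraries with fewer cells. Error bars are exact Poisson intervals of each point, which cover counting error only and not the spread over libraries. Border macrophages (mean 252) stood above microglia (70.4), and the Cd209a cells (11.6) lay at the level of neutrophils (14.9).

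Neutrophils are known to make little Apoe and served, with the wells that received no cell, as the background. In the 20 empty wells 8 of 320 UMIs were Apoe, or 0.4 UMIs per well (exact 95% Poisson interval 0.173 to 0.788), and 4 of these came from 1 well of AB5863. Neutrophil-like cells carried 33 Apoe UMIs in 30 cells, or 1.10 per cell (0.757 to 1.54), and no cell held more than 3. Microglia-like cells carried a median of 2 Apoe UMIs, MHC class II cells 11 and border macrophage-like cells 19.5. A single Apoe UMI was thus common in cells that should lack the transcript, and intervals on these counts cover counting error only.

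Shares of cells with an Apoe UMI were read against that background at equal depth. After thinning each cell to 500 UMIs, 98.1% of border macrophage-like cells, 80.8% of MHC class II cells, 74.3% of monocyte-like cells and 63.4% of microglia-like cells had an Apoe UMI, against 46.8% of neutrophil-like and 40.1% of Cd209a cells. Unthinned, the shares of the first 4 were 99.2%, 90.7%, 86.0% and 79.0%, against 18 of 30 neutrophil-like and 75.6% of Cd209a cells, with a median depth of 2068 UMIs in Cd209a cells and 668.5 in neutrophil-like cells. The Cd209a share at equal depth was not above the neutrophil-like share. Per cell, Cd209a cells held 3.46 Apoe UMIs (median 2) and neutrophil-like cells 1.10 (median 1). Of the 142 Apoe UMIs of Cd209a cells, 40 came from 1 cell. Thinning a deep cell also thins a background that is fixed per well, so the shares cannot decide whether the Cd209a level is background. That was not tested.

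Apoe was unevenly spread within the microglia-like class. The median microglia-like cell stood at 19.7 UMIs of Apoe per 10000 and the upper quartile began at 79.7, while the highest neutrophil-like cell had 59.5. Taking that highest neutrophil-like cell as a level, a choice made after the values were seen, 78 of 252 microglia-like cells (31.0%, exact 95% binomial interval 25.3 to 37.1%) were above it, and these cells carried 85.2% of the Apoe UMIs of their class. The share was between 28.6% and 33.3% in all 5 libraries. Above the same level were 110 of 120 border macrophage-like cells (91.7%), 109 of 194 MHC class II cells (56.2%), 18 of 50 monocyte-like cells (36.0%) and 1 of 41 Cd209a cells (2.44%). The microglia-like mean therefore mixes a majority of cells in the neutrophil range with a minority well above it.

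**Figure D2:**
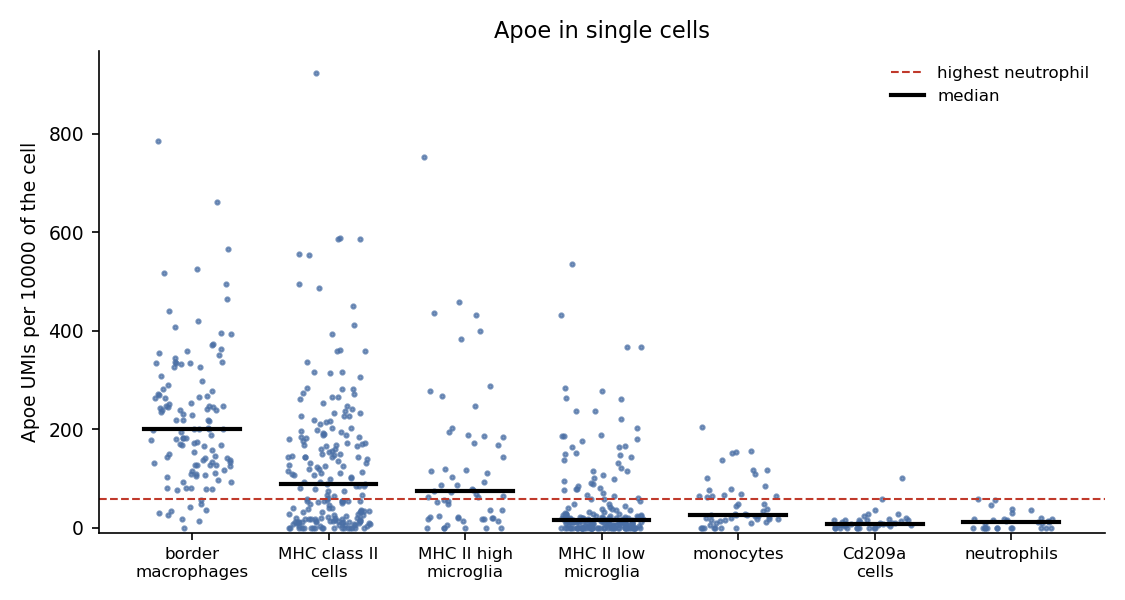
Apoe UMIs per 10000 in single cells (y axis) by cell class (x axis), with 1 point per cell. Most microglia fall within the neutrophil range, whose highest cell is at 59.5, while 91.7% of border macrophages lie above it.

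The Apoe level of microglia-like cells was higher where microglia markers were fewer and where MHC class II UMIs were more, though of the 78 cells above the neutrophil-like level 44 were MHC class II low (of 194) and 34 high (of 58). Apoe was at 100.3 UMIs per 10000 in cells whose microglia markers summed to 80 to 120 per 10000, at 54.0 from 120 to 200, at 39.0 from 200 to 300 and at 19.9 in the 16 cells above 300. In each of the 5 libraries the cells at 80 to 120 had more Apoe than those at 120 or more, from 199.9 against 50.1 in AB5863 to 85.1 against 75.3 in AB5867. Border macrophage markers moved with the same bins, at 6.88, 4.96, 5.34 and 2.06 UMIs per 10000, as did MHC class II genes, at 158.7, 86.9, 78.1 and 28.9. Marker sums and Apoe are shares of the same cell's UMIs, and the part of the border markers, of the MHC class II genes and of cells near the gate in this order was not tested.

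Split by MHC class II, the 58 microglia-like cells at or above 100 UMIs per 10000 held more Apoe than the 194 below in all 5 libraries. In order of library number, from AB5863 to AB5876, Apoe was at 178, 111, 106, 185 and 76.6 UMIs per 10000 in the MHC class II high cells. In the MHC class II low cells it was at 49.0, 9.52, 55.2, 56.7 and 42.4 UMIs per 10000, so that the groups did not overlap. The difference within a library was 88.7 ± 43.9 UMIs per 10000 (SD, n = 5), and the exact two-sided sign-flip permutation test gave p = 0.0625, the smallest that 5 libraries allow. Across all genes none of 3619 passed in this comparison (0% called) by edgeR's quasi-likelihood test with Benjamini-Hochberg adjustment, Apoe included (log2 difference 1.34, SE 0.36, adjusted p = 0.827). At an unadjusted p under 0.05, 24 genes were higher and 104 lower, and DESeq2 called 2. Monocyte markers, at 9.75 against 1.68 UMIs per 10000, and border macrophage markers, at 8.98 against 4.11, also stood higher in the MHC class II high cells, and their part was not tested. Border macrophage-like cells showed no such order, with Apoe at 210 UMIs per 10000 in the 75 MHC class II high and 235 in the 45 MHC class II low cells over all libraries. Of the 20 microglia-like cells that also passed a list of activation genes (Ccl3 and Ccl4 among them), 8 in AB5865 and 6 in AB5876 could be compared with the others, with summed Apoe at 118 against 65.3 and at 77.6 against 47.7 UMIs per 10000 (log2 difference 0.42, SE 0.24, adjusted p = 0.872 by edgeR, 0.0693% of 2887 genes called). These sums rest on few cells, since 1 cell gave 76 of the 115 Apoe UMIs in AB5876, where the other 5 were at 36.2 UMIs per 10000, and 1 cell gave 52 of 126 in AB5865, where the other 7 were at 78.3. The median activated cell, at 15.2 UMIs of Apoe per 10000, was below the median of the other microglia-like cells, at 19.9.

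The fits across all genes placed these Apoe differences against the spread of every gene. Positive log2 differences mean higher in the class named first, and the comparisons against microglia-like cells share the microglia-like sums. Against microglia-like cells, Apoe was lower in Cd209a cells by edgeR's quasi-likelihood test (log2 difference -2.58, SE 0.38, Benjamini-Hochberg adjusted p = 6.71e-09, lower in 3 of 3 libraries), and it was 1 of 7 tested members that passed there, beside 4.37% of 4024 genes called. The call was lost without AB5865 (adjusted p = 0.385), and the median of all genes was itself at -0.47 in this comparison. The difference between border macrophage-like and microglia-like cells in Apoe was 1.66 (SE 0.50), with an adjusted p of 0.0968 by edgeR. It passed in 7 of 12 alternatives, among them without AB5863 (1.86, adjusted p = 3.41e-55) and with stricter gates (2.72, adjusted p = 8.98e-94). The alternatives in which it did not pass by edgeR were those without AB5865 (1.61, adjusted p = 0.999), without AB5876 (1.43, adjusted p = 0.999), at a minimum of 300 UMIs (1.25, adjusted p = 0.219), with no filter on low counts (adjusted p = 0.408) and with no replicate block (1.68, adjusted p = 0.13).

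Against microglia-like cells, the Apoe difference was 0.56 (SE 0.29, edgeR adjusted p = 0.570) in MHC class II cells, higher in 3 of 4 libraries. It was -1.34 (SE 0.53, edgeR adjusted p = 0.225) in monocyte-like cells, where the median of all genes was at -0.76. Between border macrophage-like and MHC class II cells it was 0.78 (SE 0.21, edgeR adjusted p = 0.0908), higher in 3 of 3 libraries. These Apoe differences did not pass, and the scaling mattered most in monocyte-like cells: without TMM factors the Apoe difference was -0.54 there (edgeR adjusted p = 0.449), and the median of all genes moved by 0.453. Apoe in MHC class II against microglia-like cells (0.73, edgeR adjusted p = 0.00553), in border macrophage-like against MHC class II cells (0.89, adjusted p = 0.00235) and in MHC class II high against low microglia-like cells (1.64, adjusted p = 2.52e-10) passed without TMM factors.

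**Figure D3:**
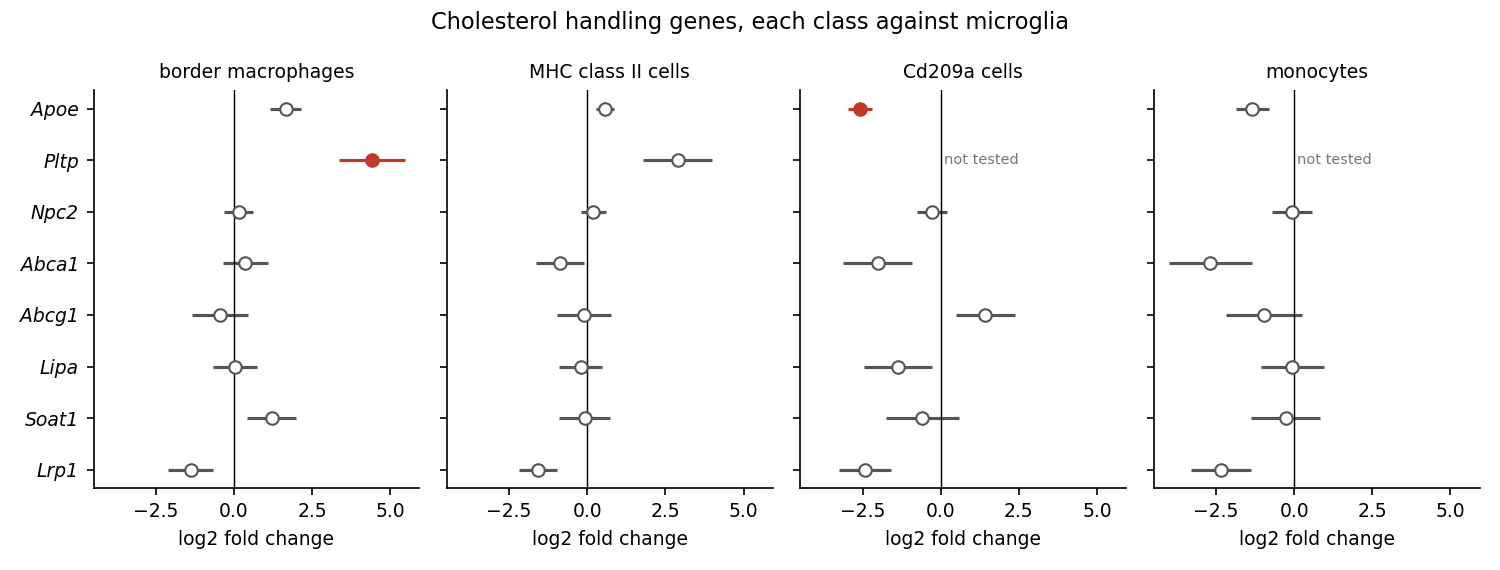
Log2 difference in UMIs (x axis, error bars ± SE derived from the F statistic of edgeR) for each tested gene of the set (y axis), with calls marked. Panels show border macrophages, MHC class II cells, Cd209a cells and monocytes, each against microglia. Apoe in Cd209a cells (-2.58) and Pltp in border macrophages (4.41) were the calls.

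Pltp, the phospholipid transfer protein that remodels lipoprotein particles, lies on chromosome 2 at 164839518 to 164857711 of GRCm38. It was the other gene of the set that passed, in border macrophage-like cells. These cells held 0 Pltp UMIs in AB5863, 18 in AB5865 and 16 in AB5876, against 0, 1 and 2 in microglia-like cells of the same libraries. Over these libraries the Pltp level was 2.60 against 0.109 UMIs per 10000, a ratio of 23.8 (exact 95% interval 7.49 to 121, counting error only). In the fit the Pltp log2 difference was 4.41 (SE 1.06, edgeR adjusted p = 0.0147), and 1 of 8 members passed where 0.502% of 4384 genes were called. The call rested on both large libraries, since without AB5865 or without AB5876 the adjusted p was 0.999, and it was also lost at a minimum of 300 UMIs per cell (3.08, adjusted p = 0.191) and with no filter on low counts (4.25, adjusted p = 0.0583). DESeq2 gave Pltp a log2 difference of 4.03 with no adjusted p, and with the default filter of edgeR, or with MHC class II low cells only, Pltp was not tested.

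Most of the remaining Pltp UMIs were spread over other MHC class II-rich classes. MHC class II cells held 5 Pltp UMIs in AB5863, 2 in AB5864, 5 in AB5865 and 10 in AB5876, or 0.686 per 10000 over all libraries. Monocyte-like cells held 7 in all (0.957 per 10000), and Cd209a cells also 7 (0.723 per 10000), 5 of them from 1 cell. Pltp did not pass in MHC class II against microglia-like cells (log2 difference 2.89, SE 1.11, edgeR adjusted p = 0.274, 1.14% of 5791 genes called). There 0 of 8 members passed by edgeR, 2 had an unadjusted p under 0.05 (Pltp and Lrp1), as had 9.27% of all genes tested there, and DESeq2 called 1, Lrp1. Between border macrophage-like and MHC class II cells it was at 1.60 (SE 0.71, edgeR adjusted p = 0.645), with 0 of 8 members and 0.166% of 4206 genes called, while 2 members (Apoe and Pltp) and 6.40% of all genes had an unadjusted p under 0.05 by edgeR and DESeq2 called 0.

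Lrp1, the low-density lipoprotein receptor-related protein through which cells take up Apoe-bearing particles, lies on chromosome 10 at 127538161 to 127621148 of GRCm38. Its highest pooled level was in microglia-like cells. Lrp1 there was at 3.36 UMIs per 10000 in AB5863, 2.97 in AB5864, 2.86 in AB5865 and 3.76 in AB5876, and at 0.515 in AB5867, where it rests on 1 UMI. Over all libraries Lrp1 was at 1.15 in MHC class II cells, 0.957 in monocyte-like cells and 0.619 in Cd209a cells, and at 0 of 24413 UMIs in neutrophil-like cells, which allows up to 1.23 per 10000. The border macrophage-like level of 1.63 came from unequal libraries, 20 Lrp1 UMIs in 13 of 55 cells of AB5865 against 1 UMI in 55 cells of AB5876.

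No Lrp1 difference passed in these comparisons. Against microglia-like cells the Lrp1 log2 difference was -1.38 (SE 0.72, edgeR adjusted p = 0.786) in border macrophage-like, -1.59 (SE 0.61, adjusted p = 0.272) in MHC class II, -2.43 (SE 0.83, adjusted p = 0.0674) in Cd209a and -2.34 (SE 0.96, adjusted p = 0.231) in monocyte-like cells. Lrp1 was below the microglia-like level in 4 of 4 libraries of MHC class II cells, 3 of 3 of Cd209a cells and 4 of 4 of monocyte-like cells. In Cd209a cells it passed without AB5864 (-2.19, edgeR adjusted p = 0.0139) and by DESeq2 (-2.82, adjusted p = 0.0103), and in MHC class II cells by DESeq2 (-1.95, adjusted p = 0.0444).

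Npc2, which hands free cholesterol to the lysosomal membrane, lies on chromosome 12 at 84754562 to 84773152 and was the most abundant gene of the set after Apoe. Npc2 was at 7.41 ± 2.41 UMIs per 10000 (SD, n = 5) in microglia-like, 7.75 ± 2.93 (n = 3) in border macrophage-like, 7.65 ± 2.14 (n = 4) in MHC class II, 9.23 ± 4.65 (n = 4) in monocyte-like and 6.94 ± 2.84 (n = 3) in Cd209a cells. Neutrophil-like cells stood apart, with 3 Npc2 UMIs in 24413, or 1.23 per 10000 (exact 95% Poisson interval 0.253 to 3.59). Each of the 4 fitted Npc2 differences from microglia-like cells lay between -0.29 and 0.19 on the log2 scale, with SEs of 0.40 to 0.64, and did not pass.

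Lipa, the lysosomal acid lipase that splits cholesteryl esters, lies on chromosome 19 at 34492318 to 34527474. Over all libraries it ranged from 0.516 UMIs per 10000 in Cd209a cells (5 UMIs) to 2.05 in monocyte-like cells (15 UMIs), with 1.45 in microglia-like, 1.43 in MHC class II and 1.93 in border macrophage-like cells. Its libraries were uneven, since microglia-like cells held 8 Lipa UMIs in AB5863, 20 in AB5865 and 18 in AB5876 but 0 in AB5864 and AB5867. Neutrophil-like cells held 0 Lipa UMIs, and no Lipa difference passed by edgeR in these comparisons.

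**Figure D4:**
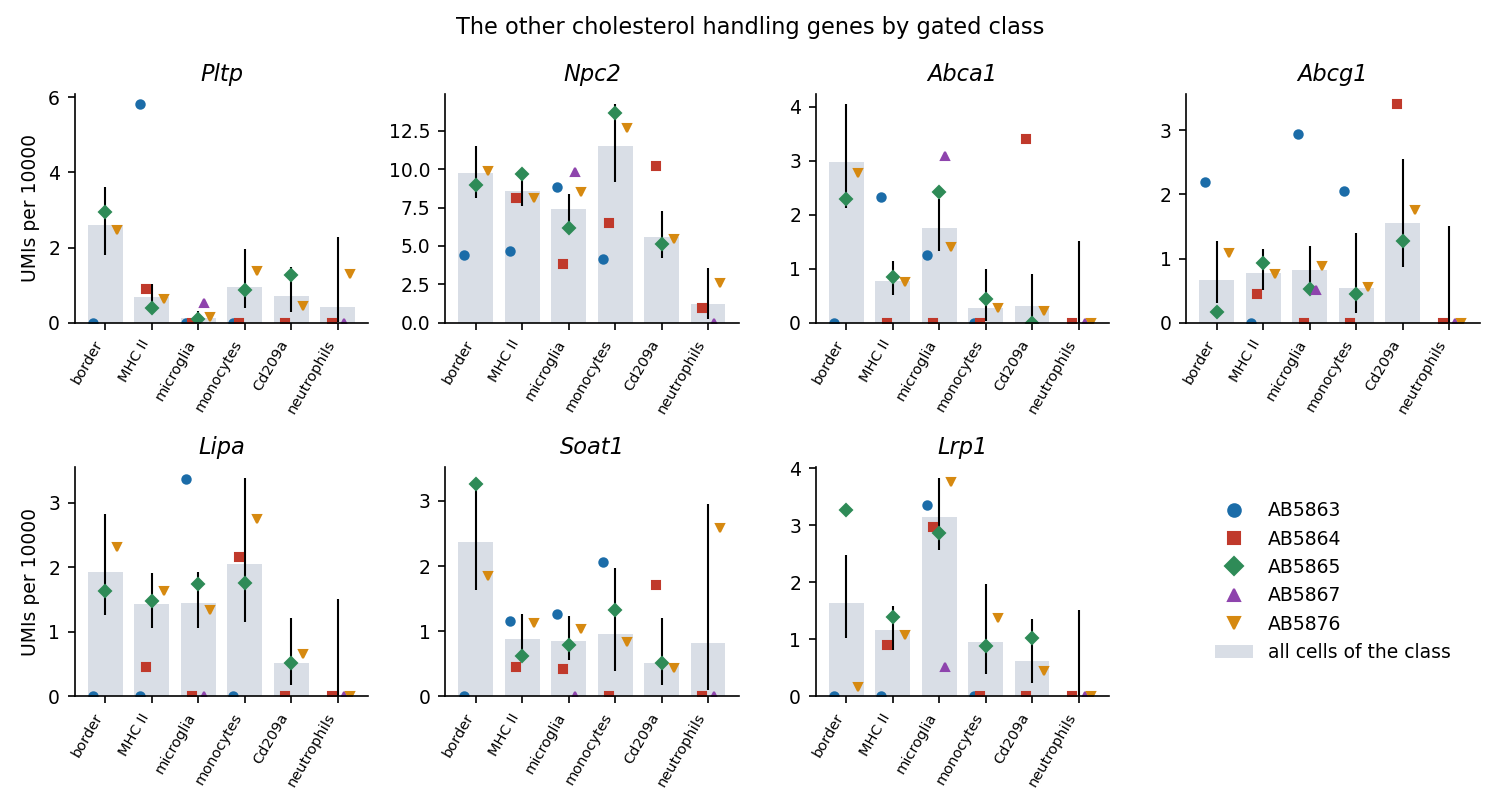
UMIs per 10000 (y axis) of the 7 genes beside Apoe by cell class (x axis), with 1 point per library with at least 5 cells. Bars are the level over all cells of the class. Error bars are exact Poisson intervals of that level, which cover counting error only and not the spread over libraries. The Npc2 bars lie between 5.58 and 11.5 in all classes but neutrophils, and the Lrp1 bar is highest in microglia. The Pltp and Soat1 bars are highest in border macrophages, mostly from the 2 large libraries.

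Abca1, the transporter that loads cholesterol onto lipid-poor apolipoproteins, lies on chromosome 4 at 53030787 to 53159895. It was found mainly in border macrophage-like and microglia-like cells. Border macrophage-like cells held 0 Abca1 UMIs in AB5863, 2.29 per 10000 in AB5865 and 2.78 in AB5876, and 8 further UMIs came from 1 cell of AB5867. Microglia-like cells held 1.26, 0, 2.43, 3.09 and 1.40 Abca1 UMIs per 10000 in order of library number, which overlaps the border macrophage-like range. Abca1 was low in pooled Cd209a cells, with 3 UMIs against 47 in microglia-like cells of the same libraries (ratio 0.193, exact 95% interval 0.0385 to 0.601). Of these 3 UMIs 2 came from 1 cell, and in 1 of 3 libraries Abca1 was higher in the Cd209a cells. Abca1 was also low in monocyte-like cells, with 2 UMIs against 50 (ratio 0.174, exact 95% interval 0.0205 to 0.662). Neither passed in the fit (log2 differences -2.02 and -2.68, SE 1.11 and 1.34, edgeR adjusted p = 0.346 and 0.340), and 0 of 7 members passed in monocyte-like against microglia-like cells, where 1.37% of 4079 genes were called. At an unadjusted p under 0.05 stood 3 members (Apoe, Lrp1 and Abca1) and 14.1% of all genes, and DESeq2 called 1, Apoe.

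Abcg1, the transporter that passes cholesterol to mature particles, lies on chromosome 17 at 31057675 to 31117988. Its highest level was in Cd209a cells, at 1.55 UMIs per 10000 (15 UMIs, in 22.0% of cells), against 0.547 to 0.819 in the microglia-like, border macrophage-like, MHC class II and monocyte-like cells. At equal depth the share of Cd209a cells with an Abcg1 UMI was 5.999%, against 3.56% in microglia-like cells. The Abcg1 difference between them did not pass (log2 difference 1.43, SE 0.95, edgeR adjusted p = 0.492).

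Soat1, which esterifies cholesterol for storage, lies on chromosome 1 at 156424525 to 156474331. Border macrophage-like cells held 0 Soat1 UMIs in AB5863, 20 in AB5865 and 12 in AB5876, or 2.38 per 10000 over all libraries. The other named classes lay between 0.516 and 0.957. Cells with both the microglia and the border macrophage mark were at 1.19 and cells in no class at 1.29. Against microglia-like cells the count ratio was 2.59 (exact 95% interval 1.49 to 4.52, counting error only), while the fit gave a log2 difference of 1.21 (SE 0.79, edgeR adjusted p = 0.938). In the 6 cells of AB5863, where 0 were seen, 3 UMIs would have been a level of 6.61 per 10000.

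Of 52 other genes of lipoprotein uptake, lysosomal release, efflux, storage, sterol synthesis and its regulation, 21 could be tested in border macrophage-like against microglia-like cells. There 1 was higher and 1 lower by edgeR. Msr1, a scavenger receptor for modified lipoproteins, held 30 UMIs against 4 (log2 difference 3.87, SE 1.01, edgeR adjusted p = 0.0352). Without AB5865 or without AB5876 no gene was called in this comparison, Msr1 included. Mylip, the ubiquitin ligase that marks the low-density lipoprotein receptor for degradation, held 4 UMIs against 104 (log2 difference -3.40, SE 0.83, edgeR adjusted p = 0.0177). Mylip was also lower in MHC class II against microglia-like cells (19 against 105 UMIs, log2 difference -2.51, SE 0.67, edgeR adjusted p = 0.0248), where 22 were tested. The Mylip calls were lost without AB5865 and without AB5876. The median log2 difference of the tested genes of this list was -0.35 in border macrophage-like and -0.30 in MHC class II against microglia-like cells, beside -0.10 and -0.13 over all genes. By edgeR none of the list passed in the other 5 comparisons, with 12 to 22 tested, and at an unadjusted p under 0.05 there were 6 lower in Cd209a and 4 lower in monocyte-like cells against microglia-like cells, where the list's medians were -1.46 and -1.15 beside -0.47 and -0.76 over all genes. Over all genes 11.3% of 4024 and 12.7% of 4079 were lower at that unadjusted p in these comparisons. The apolipoprotein genes beside Apoe were nearly silent, Apoc1 with 16 UMIs and Apoc2 and Apoc4 with 0 in the kept cells.

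The gene rows most like Apoe across 22 sums per class and library, among 744 genes with at least 200 UMIs, were Maf (Pearson r 0.862 of log2 of UMIs per 10000 plus 1), Cd14 (0.849), Mpeg1 (0.817), Ctsb (0.802) and Ctsa (0.794). Maf is a transcription factor of resident macrophages, Cd14 a co-receptor for lipopolysaccharide, Mpeg1 a pore-forming protein of phagocytes, and Ctsb and Ctsa are lysosomal proteases. Maf was at 13.7 UMIs per 10000 in border macrophage-like, 4.47 in microglia-like and 0.103 in Cd209a cells. The other genes of the set were less like Apoe, from 0.390 for Pltp and 0.360 for Npc2 through 0.323 for Lrp1, 0.314 for Abca1, 0.296 for Lipa and 0.170 for Soat1 to 0.000928 for Abcg1, with far fewer UMIs. The sums share libraries and depth, so these values are descriptions.

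Clptm1, a gene on the same strand whose annotated span (chromosome 7, 19631571 to 19665033) ends 31.1 kb from that of Apoe, tracked Apoe in a way that depended on the library. As a share of Clptm1 and Apoe UMIs together, Clptm1 took 2.16% in AB5863, 4.91% in AB5867, 8.58% in AB5864, 10.7% in AB5876 and 24.3% in AB5865. Within AB5865 the share was nearly the same in every large class, at 24.3% in microglia-like, 24.5% in border macrophage-like, 24.6% in MHC class II and 24.4% in monocyte-like cells. Neutrophil-like cells had 0 Clptm1 with 33 Apoe UMIs. Apoc2, Gm44805, Apoc4 and Apoc1 lie between the genes. Adding the Clptm1 UMIs to those of Apoe raised the microglia-like level from 63.4 to 75.5 UMIs per 10000 over all libraries, and how reads were assigned to the Clptm1 row was not tested.

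**Figure D5:**
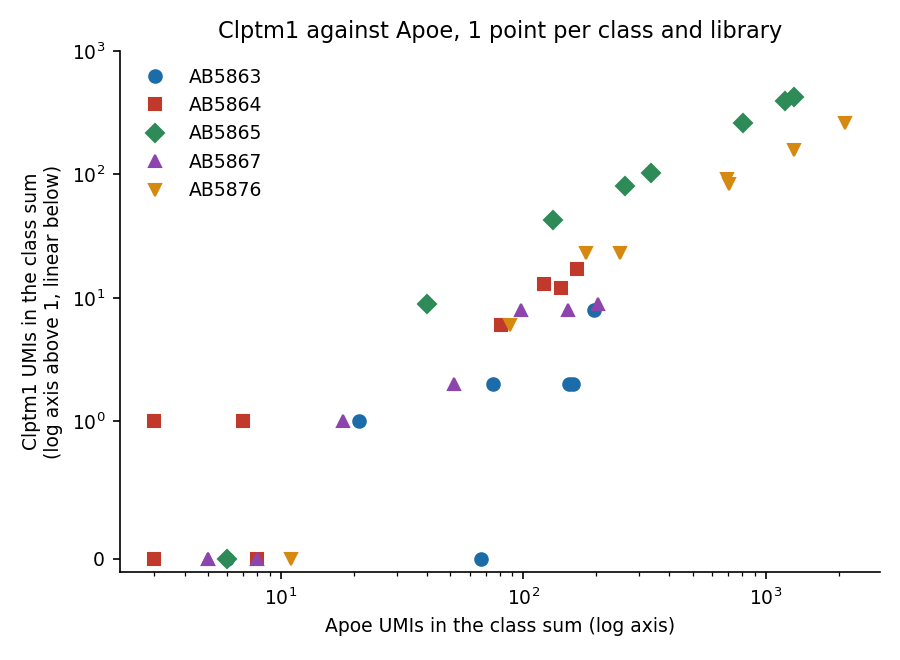
Clptm1 UMIs against Apoe UMIs on log axes, with 1 point per class and library and 1 colour per library. Points of a library follow a line of their own, at 24.3% Clptm1 in AB5865 and 2.16% in AB5863.

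The promoters of Abca1 and Apoe are shown because both genes are known targets of liver X receptors, which bind the direct repeat DR4 (AGGTCA, then 4 bases of any kind, then AGGTCA, searched on both strands). Sequences of 250 bases before to 50 after the start were from RefSeq (GRCm38.p6), where 7 of the 8 members had an entry. Capitals mark the closest match in each, which for Abca1 (chr4:53159846-53160145, minus strand) had 3 mismatches of 12 fixed bases and began at position -67 from the start. For the most upstream Apoe start (chr7:19699139-19699438, minus strand) it had 4 mismatches.
Abca1: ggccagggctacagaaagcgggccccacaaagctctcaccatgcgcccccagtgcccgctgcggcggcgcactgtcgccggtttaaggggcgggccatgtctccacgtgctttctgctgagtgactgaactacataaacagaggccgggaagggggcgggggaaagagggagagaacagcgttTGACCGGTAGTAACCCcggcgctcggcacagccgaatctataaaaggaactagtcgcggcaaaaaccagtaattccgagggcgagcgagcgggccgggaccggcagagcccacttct
Apoe: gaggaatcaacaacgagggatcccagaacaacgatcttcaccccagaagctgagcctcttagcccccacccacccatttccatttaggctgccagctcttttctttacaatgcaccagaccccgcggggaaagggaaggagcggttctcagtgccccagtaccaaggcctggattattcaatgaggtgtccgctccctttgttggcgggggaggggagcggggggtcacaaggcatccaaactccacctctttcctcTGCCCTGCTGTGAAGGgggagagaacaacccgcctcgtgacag
Matches with at most 3 mismatches were found in 21.9% of 32851 promoters and with at most 4 in 76.9%, so that neither match is rare. The other 2 annotated Apoe starts also had 4 mismatches, and Abca1 and Apoe levels across the 22 sums had a Pearson r of 0.314.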

How the data were processed

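Values for 5 MARS-seq libraries were analysed. The deposited tables hold unnormalized UMI counts, with genes in rows and wells in columns, which the authors made from demultiplexed, mapped and filtered reads; bcl2fastq 2.15.0.4 and the build mm10 are named in the submitters' processing notes, and the sources used here give no aligner. The 92 spike-in rows of 52634 were left out, and 0 columns belonged to other series. Wells with 1 cell and at least 500 UMIs were kept; doublets were excluded only in the authors' sort, and no caller was run. Gates were set on the summed markers after those sums were seen: neutrophil 1000 UMIs per 10000, microglia 80, border macrophage 30, monocyte 30, Cd209a list 20, MHC class II 100 and activation 20, each of the middle lists with at least 3 to 5 UMIs.

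Counts were summed per class and library (at least 5 cells) and tested with edgeR 4.0.16 in R 4.3.3 (quasi-likelihood, TMM, robust, library as block, genes with at least 15 UMIs, gating markers left out, Benjamini-Hochberg over all genes, threshold 0.05). DESeq2 1.42.0 was an alternative. Scripts were tested on simulated data. Levels are UMIs per 10000; intervals are exact at 95%. Positions are from GENCODE (GRCm38). The genes and lists were chosen with earlier results of these data known; named are the 8 members, pathway genes that passed, the neighbours of Apoe and the 5 genes most like it.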

Additional observations from a re-analysis of the deposited data

Results flagged for a closer look

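Dixon's criterion singled out 6 values of 40 sets of 4 or 5 libraries tested, each resting on 1 to 5 UMIs. Its chance rate of about 1 in 20 is for normal values and does not hold for counts this low. Some of the sets also share cells. Pltp in MHC class II cells was at 5.81 UMIs per 10000 in AB5863 (5 UMIs in 13 cells) against 0.388 to 0.906 in the other libraries. Lrp1 in microglia-like cells was at 0.515 UMIs per 10000 in AB5867 (1 UMI in 28 cells) against 2.86 to 3.76 elsewhere. Pltp in the same cells was at 0.515 UMIs per 10000 in AB5867, also 1 UMI, and at 0.623 in their MHC class II low part, against at most 0.148 and 0.0982 in the other libraries. In the 8 MHC class II high microglia-like cells of AB5863, Lipa was at 8.22 UMIs per 10000 (5 UMIs) against at most 1.47 elsewhere, and Abcg1 at 3.29 (2 UMIs) against at most 0.594. In the 1075 wells that received a cell but held under 500 UMIs, which entered no comparison, Apoe was at 2.48 UMIs per well against 0.4 in empty wells, and its level of 100.8 UMIs per 10000 was near the 99.1 of the kept cells.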

How the results depend on the processing

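Depth limits most genes of the set: Pltp to Lrp1 have 81 to 201 UMIs each, and 0 UMIs in the neutrophil-like cells allow up to 1.23 UMIs per 10000. Of 304 repeats of the main results 192 gave the same reading, and for the other named genes 551 of 592 did. Of 359 repeats of the member differences not counted there, 68 changed sign. Counts below are of genes past an adjusted p of 0.05 by edgeR unless DESeq2 is named, and differences are log2. Comparisons are named by the class set against microglia-like cells (border, MHC, Cd209a, monocyte), by border against MHC cells, and by the MHC class II high or the activated against the other microglia-like cells. The cause of the shifts was not tested.

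With DESeq2 the counts were 14 (border), 114 (MHC), 311 (Cd209a), 91 (monocyte), 1 (border against MHC), 2 (MHC class II high) and 0 (activated). The members called were 1 for border (Apoe, while Pltp had no adjusted p), 1 for MHC, 2 for Cd209a, 1 for monocyte and 1 for MHC class II high, and the Apoe differences that now passed were 1.60 (border), -1.28 (monocyte) and 1.47 (MHC class II high). Without TMM factors the counts were 63, 147, 293 and 111 in the 4 comparisons with microglia-like cells, in the order above, and 2 for MHC class II high. Members called were 2, 1 and 2 for border, MHC and Cd209a, 1 for border against MHC and 1 for MHC class II high. Apoe then passed at 1.87 (border), 0.73 (MHC), 0.89 (border against MHC) and 1.64 (MHC class II high). The share of higher genes among calls moved from 27.3% to 42.2% (MHC), from 40.3% to 58.0% (Cd209a) and from 12.5% to 44.1% (monocyte). TMM factors ran from 1.498 to 2.12 in the 7 sums under 7000 UMIs and from 0.685 to 1.92 in the other 41. With the default filter of edgeR the counts were 62, 177, 308, 94, 26, 5 and 4 in the order first given. Members called were 1, 1, 2 and 1 for border (Apoe, while Pltp was not tested), MHC, Cd209a and monocyte, 1 for border against MHC and 1 for MHC class II high, and Apoe passed at 1.73 (border), -0.76 (monocyte), 0.93 (border against MHC) and 1.56 (MHC class II high). With no filter on low counts the counts were 10 (border), 41 (MHC), 91 (Cd209a), 3 (border against MHC) and 21 (activated), with 0 members for border, and the Apoe difference of activated cells turned from 0.42 to -0.16.

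At a minimum of 1000 UMIs per cell the counts were 68 (border), 122 (monocyte), 49 (border against MHC), 2 (MHC class II high) and 1 (activated). Members called were 2 for border and 1 for border against MHC, and Apoe passed at 1.81 and 0.98. At a minimum of 300 UMIs border against MHC had 0 genes (by DESeq2, at 500 UMIs, 1) and border had 0 members. Stricter gates gave 78 genes (border), 124 (MHC), 105 (border against MHC) and 1 (MHC class II high), with 2, 2, 2 and 1 members, and Apoe passed at 2.72, 1.55, 0.82 and 2.05. They could not be run for Cd209a, monocyte and activated cells, which kept too few libraries. Stricter gates, a choice made after seeing the data for levels, set Apoe in microglia-like cells at 37.0 UMIs per 10000. The neutrophil-like level of the library taken off set it at 44.4 and Cd209a cells at -3.06, and Clptm1 UMIs added, also chosen after seeing the data, at 75.5. Further choices made after seeing the data were MHC class II low cells (border, 60 genes, Apoe 2.13), MHC class II high cells (border against MHC, 42 genes, 1 member, Apoe 0.82) and activated cells below the microglia mark included (0 genes).

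Both sums of a library come from 1 plate, so the library was the replicate block. With no replicate block the counts were 13 (border), 20 (MHC) and 0 (border against MHC), and Apoe was at 1.68 (border), 0.68 (MHC), -2.41 (Cd209a), -0.88 (monocyte), 0.78 (border against MHC), 1.15 (MHC class II high) and 0.42 (activated) and changed no side of the threshold.

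Leaving out 1 library at a time gave 0 to 148 genes (border), 7 to 200 (MHC), 0 to 441 (Cd209a), 14 to 83 (monocyte), 0 to 79 (border against MHC) and 0 to 0 (MHC class II high). Border and border against MHC fell to 0 without AB5865 or AB5876 and Cd209a without AB5865, where few cells remain, while the highest counts came without AB5863 or, for Cd209a, AB5864. Members called ran from 0 to 2 (border), 0 to 1 (MHC), 0 to 3 (Cd209a) and 0 to 2 (border against MHC). Apoe differences ran from 1.43 to 1.86, 0.25 to 0.85, -3.54 to -2.03, -1.54 to -0.60, 0.58 to 0.86 and 0.83 to 1.53 in the same order as the genes, and passed without AB5863 for MHC (0.64) and border against MHC (0.86). The activated cells had only 2 libraries, so none could be left out.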
